A study of Mus musculus with 9 samples.

Results

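The genes described here are 9 genes used to mark macrophages and monocytes: Adgre1, Adgre4, Cd68, Mertk, C1qa, C1qb, C1qc, Cd14 and Lyz2. They were chosen by symbol in the GENCODE M21 annotation, with earlier results of these same counts by tissue and genotype known, and they are 9 of the 51912 genes of the count table. Their levels by tissue and genotype are therefore given as a description, no p-value is printed for a member, and the counts of members called are a description only.

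RNA was sequenced from precursors of conventional dendritic cells (pre-cDCs) sorted from the BM and spleen of mixed BM chimeras, lethally irradiated BL/6 CD45.1/2 mice that had received WT and KO BM in equal parts. The WT donors were BL/6 CD45.1 mice, and the KO donors were Clec9a Cre/Cre mice of the CD45.2 allele. DNGR-1, a receptor for dead cells, is the product of Clec9a, and the knocked-in Cre disrupts it. The 9 samples were 3 WT and 3 KO samples of BM pre-cDCs and 1 WT and 2 KO samples of spleen pre-cDCs. Each was pooled from a pair of chimeras, so all of the cells had developed in irradiated hosts that also held cells of the other genotype, and the WT and KO cells differed in their CD45 allele as well as in Clec9a. For WT samples the labels conflict, with CD45.1 in 1 field and CD45.2 in another. The sort kept lineage-negative cells that were CD11c+ MHC II low, CD11b low and CD16/32 low, CD43+ and CD135+, and its lineage cocktail held no antibody to the F4/80 protein that Adgre1 encodes. In such bulk samples, fewer cells of a type and less RNA per cell cannot be told apart.

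Macrophages are tissue-resident phagocytes that engulf dying cells and debris, and monocytes are blood-borne cells from the same BM progenitors as dendritic cells. In the spleen, red pulp macrophages clear aged red cells and recycle their iron, marginal zone macrophages sample the blood, and nonclassical monocytes patrol the vessels. Adgre1 (F4/80) and Adgre4 are adhesion receptors of the EGF-TM7 family on macrophages and monocytes. Cd68 encodes a lysosomal glycoprotein of phagocytes, Lyz2 the lysozyme of myeloid cells, Cd14 the co-receptor that hands bacterial lipopolysaccharide to TLR4, and Mertk a kinase receptor for bridging proteins bound to apoptotic cells. C1qa, C1qb and C1qc encode the chains of C1q, the recognition molecule of the classical complement pathway, which is made mostly by macrophages.

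The libraries held 17103806 to 23722298 counts, and 3 counts, used as the floor for a bound, correspond to 0.126 to 0.175 CPM (a library's counts scaled to a common total). Values below are CPM after scaling by the trimmed mean of M values (TMM). Clec9a followed the genotype labels, at 905, 1574 and 1766 counts in WT BM, 2459 in WT spleen, 1 in each KO BM sample and 0 in both KO spleen samples. The WT spleen library stood apart: 509 genes had at most 3 counts in it while both KO spleen libraries had at least 100. Against the other 2 spleen libraries, KO spleen 1 and 2 had 149 and 140 such genes. Each BM library was compared only with the other 2 of its own genotype, and had at most 8. It also is the only WT spleen sample, so the differences between tissues are also given without it. Those values compare KO spleen with KO BM samples, and the WT BM samples add only to the estimate of spread. Whether the samples within a group came from separate chimera experiments is not stated, and the p-values measure the spread between these samples. By the paper's number of mice, samples shared mice, yet the main fits treat them as independent. With a replicate block fewer genes were called in spleen against BM.

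The promoters of 4 members are shown because of the values that follow. The neighbours C1qb and C1qc had most of their counts in spleen, and Cd68 had a high level in every sample. Adgre4 was higher in KO than in WT samples of BM, and lower in KO than in the single WT library of spleen. Promoter windows from RefSeq (GRCm38.p6) were used for 6 of the 9 members. The 250 bases before the RefSeq start are given 5′ to 3′ on the gene's strand, for Adgre4 at chr17:55749734-55749983 (plus strand), Cd68 at chr11:69666171-69666420 (minus strand), C1qb at chr4:136886201-136886450 (minus strand) and C1qc at chr4:136892915-136893164 (minus strand). Capitals mark matches to 3 motifs bound by factors of myeloid cells, searched on both strands: the PU.1 core GAGGAAG, the Maf half-site TGCTGAC and the AP-1 motif TGANTCA.
Adgre4: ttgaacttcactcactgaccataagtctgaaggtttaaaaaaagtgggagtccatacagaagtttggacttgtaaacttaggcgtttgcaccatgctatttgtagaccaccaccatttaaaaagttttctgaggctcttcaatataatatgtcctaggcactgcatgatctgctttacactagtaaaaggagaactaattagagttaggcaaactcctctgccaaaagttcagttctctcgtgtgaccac
Cd68: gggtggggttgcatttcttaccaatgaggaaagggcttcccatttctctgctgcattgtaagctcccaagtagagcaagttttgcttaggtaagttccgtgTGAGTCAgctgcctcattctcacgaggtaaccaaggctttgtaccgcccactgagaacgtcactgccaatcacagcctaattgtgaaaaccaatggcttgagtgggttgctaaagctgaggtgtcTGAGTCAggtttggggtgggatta
C1qb: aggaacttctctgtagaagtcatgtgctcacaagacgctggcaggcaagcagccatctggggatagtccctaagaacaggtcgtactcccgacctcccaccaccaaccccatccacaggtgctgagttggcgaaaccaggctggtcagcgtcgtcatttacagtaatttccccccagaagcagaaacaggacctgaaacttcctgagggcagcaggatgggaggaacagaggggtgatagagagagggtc
C1qc: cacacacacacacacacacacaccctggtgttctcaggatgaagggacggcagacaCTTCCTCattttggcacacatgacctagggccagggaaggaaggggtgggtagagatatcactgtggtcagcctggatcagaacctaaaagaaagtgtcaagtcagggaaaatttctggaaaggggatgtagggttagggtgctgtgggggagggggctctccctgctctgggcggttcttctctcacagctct

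In these stretches Cd68 had 2 AP-1 matches, with their first bases 149 and 24 bases before the start, and C1qc had 1 PU.1 match on the reverse strand, 194 bases before it. Adgre4 had a PU.1 match 42 bases after its start, outside the stretch printed. Windows of 300 bases held the PU.1 core in 13.6% of all 32851 promoters, the Maf half-site in 4.67% and the AP-1 motif in 7.81%, so that a match in some of 6 windows is a description only.

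Adgre1 (ENSMUSG00000004730, chr17:57358691-57483527 in GRCm38) was low in BM and high in spleen pre-cDCs of both genotypes. It stood at 2.09, 2.44 and 5.37 CPM in WT BM and at 5.52, 10.2 and 1.75 CPM in KO BM. In spleen it reached 124 CPM in the WT sample and 66.5 and 69.3 CPM in KO samples 1 and 2. Every spleen sample lay above every BM sample, and within BM the genotypes overlapped. The fitted difference was 4.24 ± 0.57 on the log2 scale (spleen minus BM, ± approximate SE, 6 and 3 samples). Under the other settings tried it was 3.54 to 4.65, and 3.54 without WT spleen.

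Adgre4 (ENSMUSG00000032915, chr17:55749984-55853662), which overlaps 2 pseudogenes on the opposite strand, was the only member whose genotypes did not overlap in BM. It had 5, 17 and 10 counts in WT BM and 78, 139 and 102 in KO BM, that is 0.564 ± 0.295 against 5.15 ± 1.65 CPM (mean ± SD, n = 3 each). In spleen the WT sample held 191 CPM from 3220 counts, and the KO samples 13.6 and 17.1 CPM from 245 and 404 counts. All KO samples were thus above all WT samples in BM, and both KO samples were below the WT sample in spleen. The latter also held for Adgre1, Cd68, Cd14 and Lyz2. Within BM the fitted difference of Adgre4 was 2.97 ± 0.58 (log2, KO minus WT), and edgeR did not call it. In spleen the level was 14.03-fold (95% interval 12.3 to 16.0) lower in KO sample 1 than in the WT sample and 11.2-fold (10.1 to 12.4) lower in KO sample 2. These intervals, like all those for spleen below, are exact conditional binomial intervals and cover counting error only, and no test between genotypes was made in spleen, where the WT group has 1 sample. The tissue difference of 5.25 ± 1.44, which the fit takes as shared by both genotypes, rested mostly on the WT spleen sample. Without it the difference, then between KO samples, was 1.57.

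**Figure D1:**
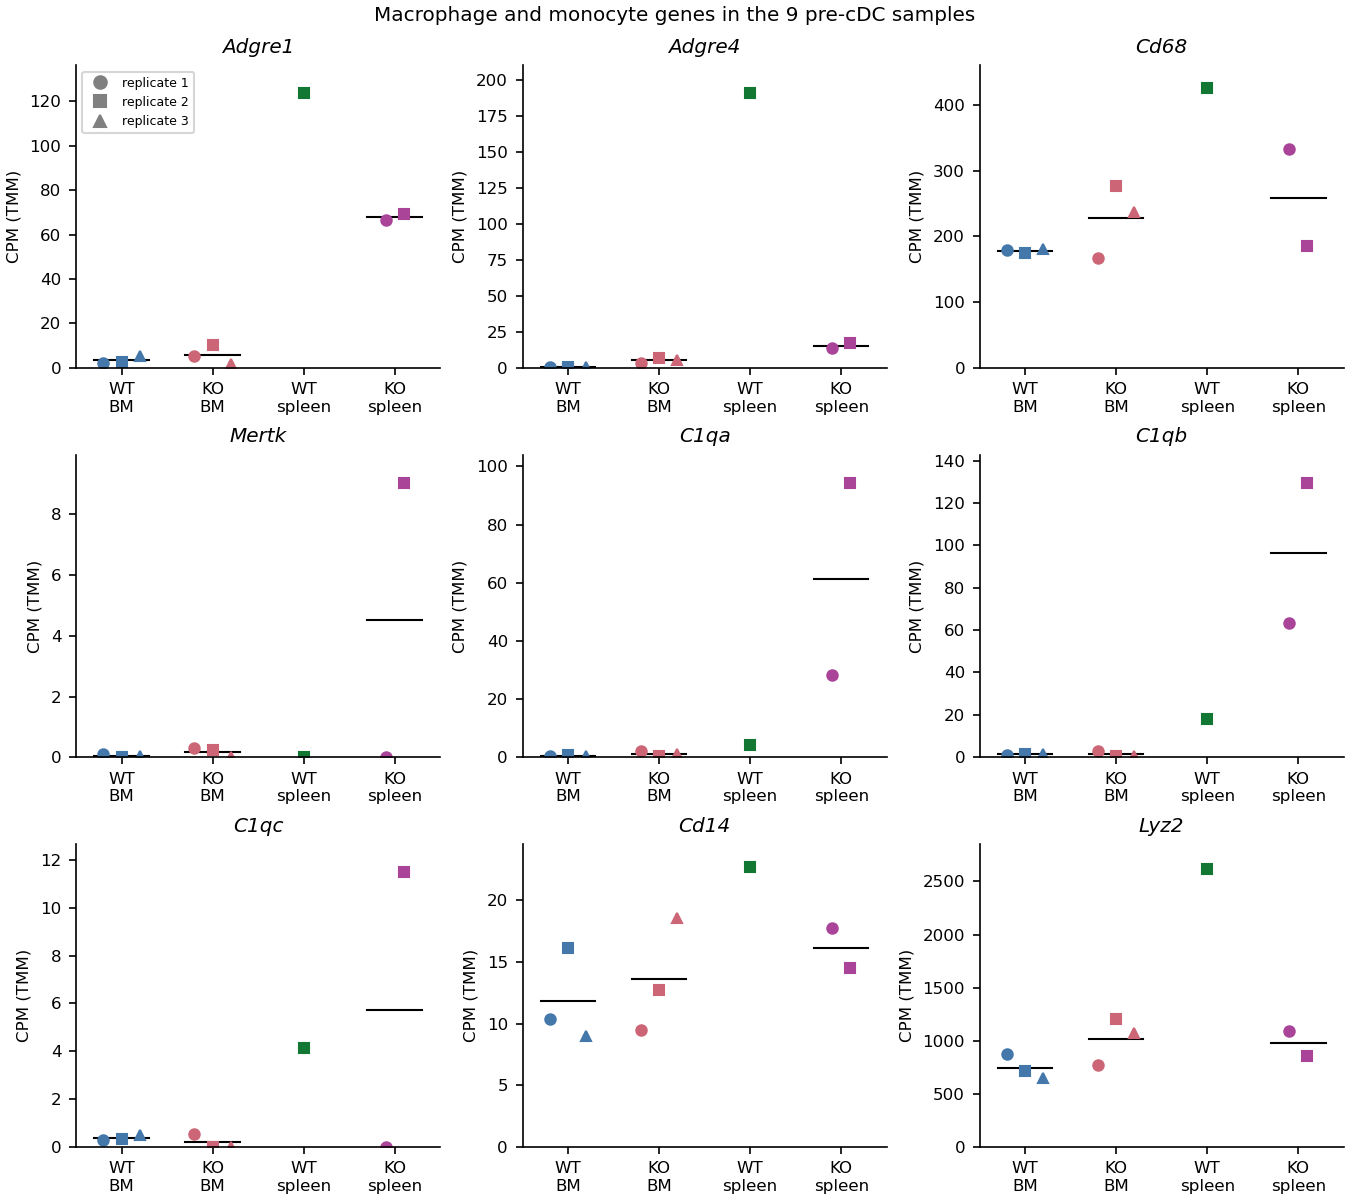
Each panel plots 1 gene, with TMM-scaled CPM on a linear axis from 0 and 1 point per sample, the marker shape giving the replicate number and the line the group mean where a group has more than 1 sample. Adgre1 and Adgre4 peaked in the WT spleen sample, at 124 and 191 CPM, whereas C1qa and C1qb peaked in KO spleen 2, at 94.4 and 129 CPM, and Mertk was at 9.03 CPM there and near 0 elsewhere.

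C1qa, C1qb and C1qc lie side by side on chromosome 4 (C1qa at chr4:136895917-136898803, C1qc at chr4:136889804-136893065, C1qb at chr4:136880129-136886187), with 2851 bases between C1qa and C1qc and 3616 between C1qc and C1qb. All 3 were low in BM. C1qa had 10, 14 and 9 counts in WT BM and 47, 12 and 20 in KO BM, and C1qb had 17, 34 and 28 counts in WT BM and 66, 10 and 13 in KO BM. C1qc had 5, 6 and 10 counts in WT BM and 12, 0 and 0 in KO BM. In BM the genotypes overlapped for C1qa and C1qb, and the highest values of all 3 were those of KO BM 1.

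In spleen the C1q genes were graded by library. C1qa had 4.39 CPM in the WT sample, 28.2 in KO sample 1 and 94.4 in KO sample 2. C1qb had 18.3, 63.3 and 129 CPM in the same order. Every spleen sample exceeded every BM sample for these genes, and both KO samples exceeded the WT sample. The fitted tissue difference was 4.70 ± 0.75 for C1qa and 5.28 ± 0.74 for C1qb (log2, spleen minus BM), and 5.53 and 6.04 without WT spleen. The KO to WT ratio of C1qa was 6.42 (95% interval 5.02 to 8.31) in KO sample 1 and 21.5 (17.1 to 27.5) in KO sample 2. For C1qb it was 3.47 (3.05 to 3.94) and 7.09 (6.31 to 7.999).

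C1qc did not follow its neighbours in every library. It had 70 counts in WT spleen, 272 in KO spleen 2 and 0 in KO spleen 1, where C1qa had 507 and C1qb 1139. Its level was 2.77-fold (95% interval 2.12 to 3.65) the WT level in KO sample 2 and at least 24.9-fold lower than the WT level in KO sample 1, the latter computed at the floor of 3 counts per library. Per kilobase of the longest transcript, C1qc made up 14.1% of the summed C1q chains in WT spleen, 4.35% in KO spleen 2 and 0% in KO spleen 1. C1qb was the most abundant chain in each spleen sample, at 68.6%, 68.2% and 54.3% in WT, KO 1 and KO 2. The tissue difference of C1qc was 3.94 ± 1.54 (log2), between 1.79 without KO spleen 2 and 4.79 without KO BM 1, and 4.38 without WT spleen.

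Mertk (ENSMUSG00000014361, chr2:128698956-128802894), which overlaps an antisense gene and a snoRNA gene, had more than 7 counts in 1 library only. It had 214 counts (9.03 CPM) in KO spleen 2 and 0 in the other 2 spleen samples. In BM it had 2, 0 and 1 counts in WT and 7, 5 and 0 in KO. In KO spleen 2 it was thus at least 50.8-fold higher than in WT spleen at the floor of 3 counts. Its fitted tissue difference of 2.96 ± 2.07 (log2) was smaller than 1.5 times its standard error.

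Cd68 and Lyz2 were abundant in every sample. Cd68 (ENSMUSG00000018774, chr11:69664213-69666153) had 180, 175 and 181 CPM in WT BM and 167, 277 and 238 in KO BM. In spleen it had 426 CPM in the WT sample and 333 and 186 in KO samples 1 and 2, so the tissues overlapped. The difference of spleen minus BM was 0.63 ± 0.28 (log2), 0.92 without KO spleen 2 and 0.20 without WT spleen.

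Lyz2 (ENSMUSG00000069516, chr10:117277331-117282321) had 870, 711 and 645 CPM in WT BM and 771, 1204 and 1069 CPM in KO BM. It reached 2617 CPM in WT spleen, above all other samples, and 1093 and 859 CPM in KO spleen 1 and 2, within the BM range. The tissue difference of 0.77 ± 0.35 (log2) was -0.04 without the WT spleen sample. Its level was 2.39-fold (2.35 to 2.43) lower in KO spleen 1 and 3.05-fold (2.995 to 3.10) lower in KO spleen 2 than in WT spleen. Lyz1, the gut lysozyme gene 5475 bases away, is similar in sequence and may share reads with Lyz2, yet it held at most 2.23% of the summed counts of the pair.

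Cd14 (ENSMUSG00000051439) had the smallest tissue difference of the 9 genes. It had 10.4, 16.1 and 8.95 CPM in WT BM, 9.497, 12.7 and 18.6 in KO BM, 22.7 in WT spleen and 17.8 and 14.5 in KO spleen. The groups overlapped apart from the WT spleen value, which was the highest. The tissue difference was 0.52 ± 0.41 (log2), and 0.26 without WT spleen.

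**Figure D2:**
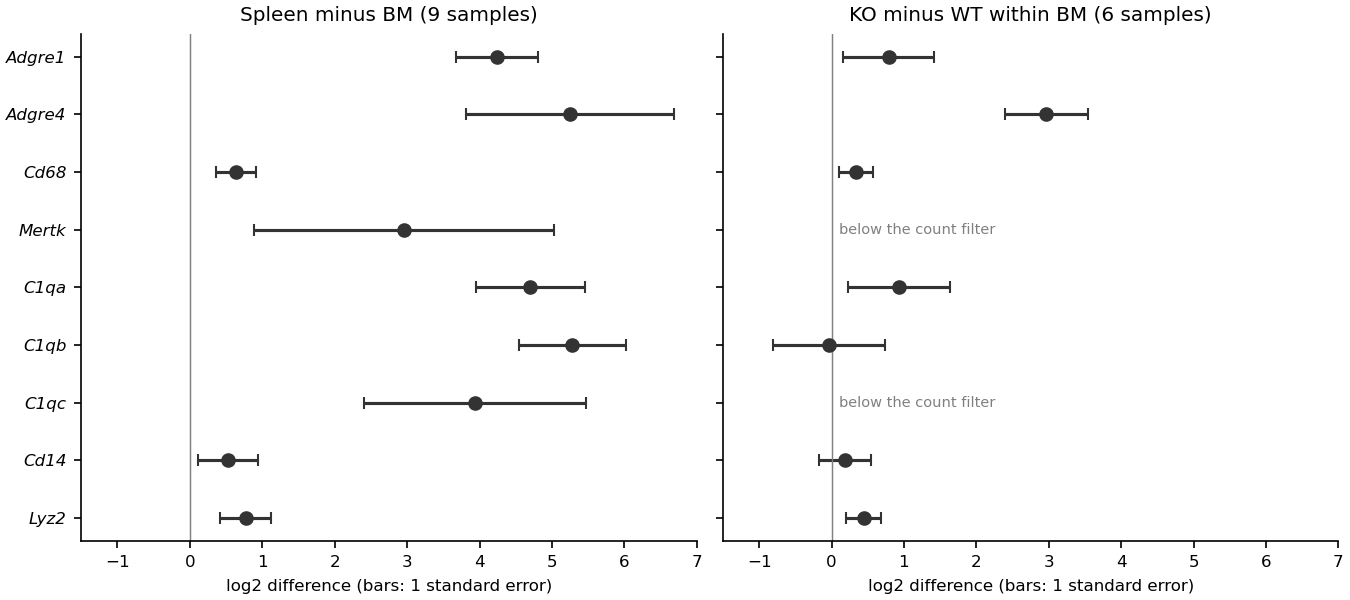
Log2 differences of the 9 genes from the edgeR fits. Spleen minus BM over 9 samples is on the left, and KO minus WT over the 6 BM samples on the right. Bars are 1 approximate standard error. The left points run from 0.52 (Cd14) to 5.28 (C1qb), and on the right Adgre4 at 2.97 stands farthest from 0.

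Taking the 9 genes as a list, all 9 tissue differences were above 0, with a median of 3.94 on the log2 scale against -0.20 over the 15813 genes tested. At an adjusted p under 0.05 (edgeR quasi-likelihood test, Benjamini-Hochberg), 4 of the 9 were called higher in spleen, namely Adgre1, Adgre4, C1qa and C1qb, and 0 were called lower. Of all genes tested, 5.98% were called higher and 9.70% lower. The same 4 members had every spleen sample above every BM sample, as did 7.78% of all genes tested. Because the members were chosen with this contrast in view, nothing is read from these counts. Adgre4 was no longer called when WT spleen 2, KO BM 1, KO BM 3 or any of the WT BM samples was left out. C1qc was called without KO spleen 1 and Cd68 without KO spleen 2. Mertk passed the filter on low counts only through KO spleen 2.

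Between genotypes within BM, 7 members passed the filter, and C1qc and Mertk did not. Their median difference was 0.44 (log2, KO minus WT) against -0.0044 over the 13016 genes tested, and 6 of the 7 were above 0. At an adjusted p under 0.05, 0 of the 7 were called by edgeR, 1 (Adgre4) had an unadjusted p under 0.05, and DESeq2 called that 1 gene higher in KO. Of all genes tested, 0.0307% were called in either direction. KO samples lay above all WT samples for 1 member and below for 0, while 4.96% and 4.59% of all genes tested did so. Differences of the other 6 were 0.79 ± 0.63 for Adgre1, 0.94 ± 0.70 for C1qa, -0.04 ± 0.77 for C1qb, 0.34 ± 0.24 for Cd68, 0.44 ± 0.24 for Lyz2 and 0.19 ± 0.36 for Cd14. The sign for C1qb turned when WT BM 2, KO BM 2 or KO BM 3 was left out, and that for Cd14 when KO BM 3 was.

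**Figure D3:**
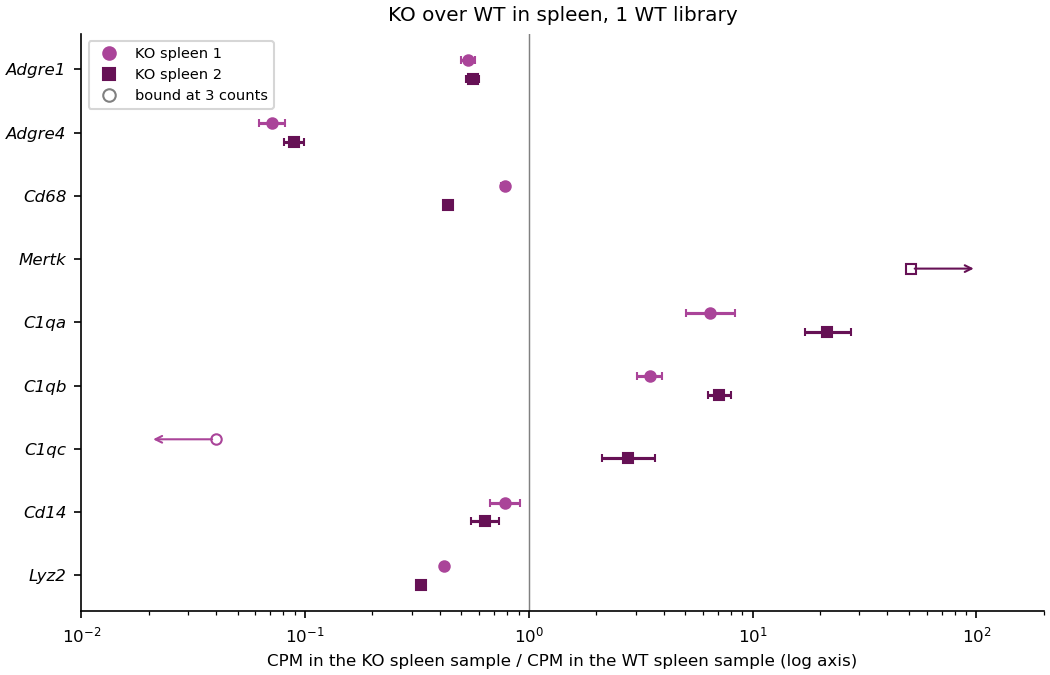
Ratio of CPM in each KO spleen sample to the single WT spleen sample on a log axis, with 95% counting intervals as bars, and open markers with arrows for bounds at 3 counts. C1qa and C1qb lie above 1 in both KO samples (up to 21.5), C1qc lies on either side, and Adgre1, Adgre4, Cd68, Cd14 and Lyz2 lie below 1 in both.

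Among the spleen libraries, Adgre1, Adgre4, Cd68, Cd14 and Lyz2 were highest in the WT sample. KO to WT ratios were 0.54 and 0.56 for Adgre1, 0.78 and 0.44 for Cd68 and 0.78 and 0.64 for Cd14. C1qa, C1qb, C1qc and Mertk were highest in KO spleen 2. C1qc and Mertk did not rank the other libraries as C1qa and C1qb did. Every gene is highest in some library, and the share of all genes highest in each was not computed. Nothing is therefore read from this split. No test was made between 1 WT and 2 KO samples, and genotype cannot be told apart from differences between these libraries.

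Levels between genes were compared per kilobase of exon (union of all exons), as medians over samples. In BM the order was Lyz2 at 623 CPM per kilobase, Cd68 at 144, Cd14 at 6.67, Adgre1 at 1.21, C1qb at 1.12, C1qa at 0.636, Adgre4 at 0.631, C1qc at 0.158 and Mertk at 0.0197. Lyz2, Cd68 and Cd14 did not overlap each other over the 6 BM samples. Adgre1, C1qb, C1qa and Adgre4 overlapped one another, their values running from 0.0855 to 3.14 CPM per kilobase. In spleen C1qb (median 58.2) and C1qa (27.1) took the third and the fourth place and Adgre1 (21.4) the fifth, ahead of Cd14 (10.3). Over the 3 spleen samples C1qb, C1qa, Adgre1 and Adgre4 overlapped one another. The places were unchanged with the length of the longest transcript.

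**Figure D4:**
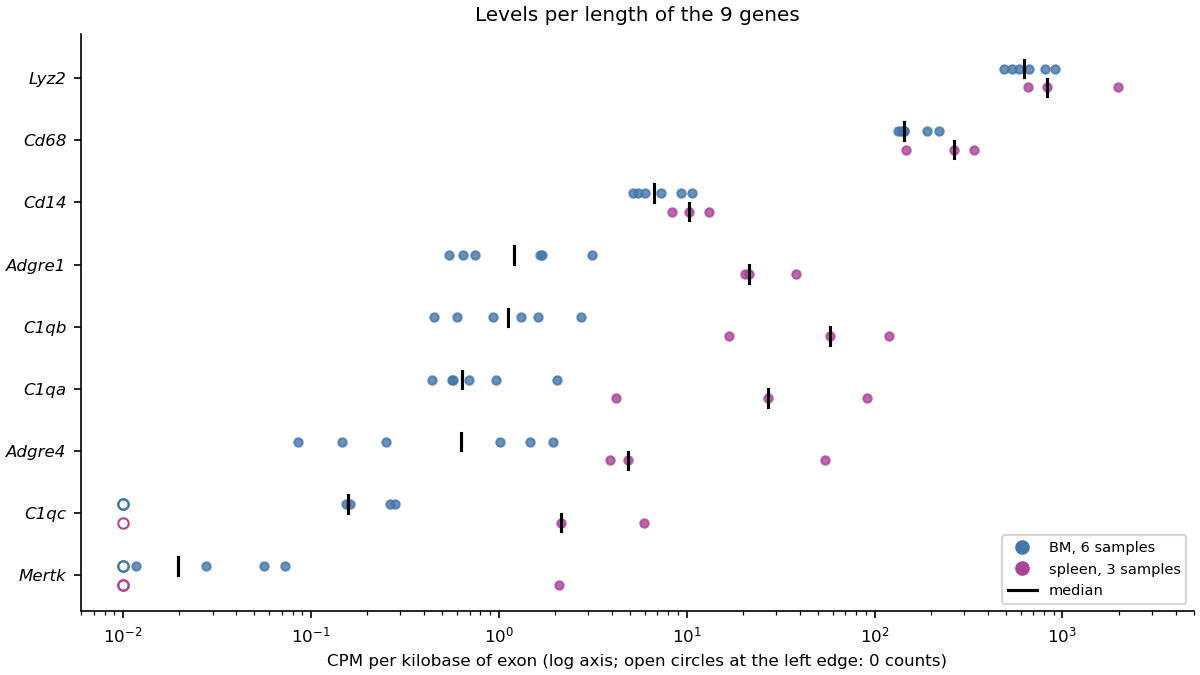
CPM per kilobase of exon on a log axis for each gene, ordered by the BM median, with 1 point per sample, BM above and spleen below, a black tick at the median and open circles at the left edge for samples with 0 counts. Lyz2 (623 in BM) and Cd68 (144) are separated from the rest, and the C1q genes and Adgre1 shift right in spleen.

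Genes of the same cells were read from 5 lists with 49 further genes. In spleen against BM, 46 of the 49 were tested, 16 were called higher (34.8%) and 2 lower (4.35%), and the median difference was 1.02 (log2). Of all genes tested, 5.98% were called higher and 9.70% lower. The lists were chosen with earlier results known, and the filter admits genes found in 1 library. These counts and the median are therefore a description only. Without WT spleen 10 were called higher and 4 lower. Within BM, 36 were tested, 0 were called by edgeR, DESeq2 or limma-voom, 5 had an unadjusted p under 0.05 (498 of the 13016 genes tested did), 8 had all KO samples above all WT samples and 0 had them below (4.96% and 4.59% of all genes tested). Their median was 0.45 (log2, KO minus WT).

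Of the 10 red pulp macrophage genes, 5 rose in spleen and 0 fell (median 2.56). The count was 2 without KO BM 1, 3 without WT BM 2, KO BM 2 or KO BM 3, and 6 without WT spleen. Clec1b, a platelet and myeloid lectin receptor, rose by 4.27 ± 0.71 (adjusted p = 0.00398), and Vcam1, the adhesion molecule that marks red pulp macrophages, by 5.48 ± 1.23 (adjusted p = 0.0159), though not past the threshold without KO spleen 2. Vcam1 had 229 counts in WT spleen, 460 in KO spleen 1 and 5102 in KO spleen 2. Spic, the factor that directs red pulp macrophage development, had 20, 457 and 1109, and Hmox1, the heme-degrading enzyme, had 43, 1693 and 4729. Slc40a1 (ferroportin, the iron exporter) had 0, 1361 and 3329 counts, and Cd5l, a secreted macrophage protein, 0, 318 and 844. Neither Slc40a1 nor Cd5l was called in spleen against BM. The call of Spic was lost when any of 5 BM samples was left out, and that of Hmox1 when any KO BM sample was. Those last 4 were named after their values had been seen, and ranked over the spleen libraries as C1qa and C1qb did. Not all of the list did so, since Cd163, Clec1b and Epb41l3 were highest in KO spleen 1 by CPM and Trf in WT spleen. Trf, the transferrin gene and the most abundant of the list, rose by 1.02 ± 0.27 (adjusted p = 0.0301), a call lost when WT spleen or any of 3 BM samples was left out. Summed over the list without Trf, the level was 58.6 to 105 CPM in BM, 47.8 in WT spleen, 309 in KO spleen 1 and 692 in KO spleen 2. With Trf the sums were 255 to 474, 876, 804 and 1198 CPM. The part of such cells in the C1q values was not tested.

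Marginal zone macrophage genes were mostly near the floor. Of the 4 of 5 tested, only Nr1h3, a sterol-sensing nuclear receptor, rose (3.43 ± 0.63, adjusted p = 0.00626), and 2 of 3 tested rose without KO spleen 1. Nr1h3 had 51, 196 and 192 counts in WT spleen, KO spleen 1 and KO spleen 2. Cd209b, a lectin of these cells, had 0 counts in all 9 samples. Timd4, a phosphatidylserine receptor, and Marco, a scavenger receptor, had 233 and 128 counts in KO spleen 2 and 0 in the other 2 spleen samples and, like Siglec1, a sialic acid-binding receptor with 0, 90 and 4 counts in the spleen samples, were named after their values had been seen. Of the 15 tested genes of the tissue macrophage core list, 2 rose and 0 fell (median -0.13), and 0 rose without WT BM 2, any 1 of the KO BM samples or KO spleen 2. Among them was Tlr7, an RNA sensor (4.58 ± 1.29, adjusted p = 0.0398), a call lost without WT spleen and without KO spleen 2, among other samples. Csf1r, the receptor for macrophage colony-stimulating factor and the most abundant gene of this list, was at -0.13 ± 0.47 (adjusted p = 0.884). Cebpb, a myeloid transcription factor, had at most 2 counts in any sample.

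Of the 8 tested nonclassical monocyte genes, 6 rose in spleen and 0 fell (median 3.45), whereas without the WT spleen sample 2 rose. Adgre5 (CD97), a paralog of Adgre1 and Adgre4, rose by 2.85 ± 0.25 (adjusted p = 0.000152), with 7621 counts in WT spleen and 8023 and 12884 in KO spleen. Nr4a1, the nuclear receptor on which these monocytes depend, rose by 4.05 ± 0.64 (adjusted p = 0.00299), with 5530 counts in WT spleen and 761 and 1751 in KO spleen. Cx3cr1, the fractalkine receptor and the most abundant of the list, was at -0.25 ± 0.28 (adjusted p = 0.569). Summed CPM of the list was 299 to 666 in BM, 1926 in WT spleen and 992 and 957 in KO spleen 1 and 2. For 6 of the 9 genes the WT spleen sample was the highest of all 9 samples. The share of all genes highest in that 1 library was not computed, and nothing is read from this count.

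Of the 10 tested classical monocyte genes, 2 rose and 2 fell in spleen (median -0.24). Ifitm6, an interferon-induced membrane protein gene (1.496 ± 0.28, adjusted p = 0.00742), and Ms4a4c (1.02 ± 0.25, adjusted p = 0.0228) rose, and neither did so without WT spleen, when 0 rose and 3 fell. Without KO spleen 2, 1 rose and 3 fell. Chil3, a chitinase-like protein of BM monocytes and neutrophils, fell by 8.58 ± 1.21 (adjusted p = 0.0018), and F13a1, a coagulation factor subunit, fell by 2.54 ± 0.38 (adjusted p = 0.00226). Ly6c2, the defining surface antigen, was at -0.32 ± 0.28 (adjusted p = 0.477). Vcan, the proteoglycan versican, had 0 counts in all 9 samples. Summed CPM of the list was 2336 to 3196 in WT BM, 3309 to 4635 in KO BM, 3638 in WT spleen and 2563 and 3687 in KO spleen.

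**Figure D5:**
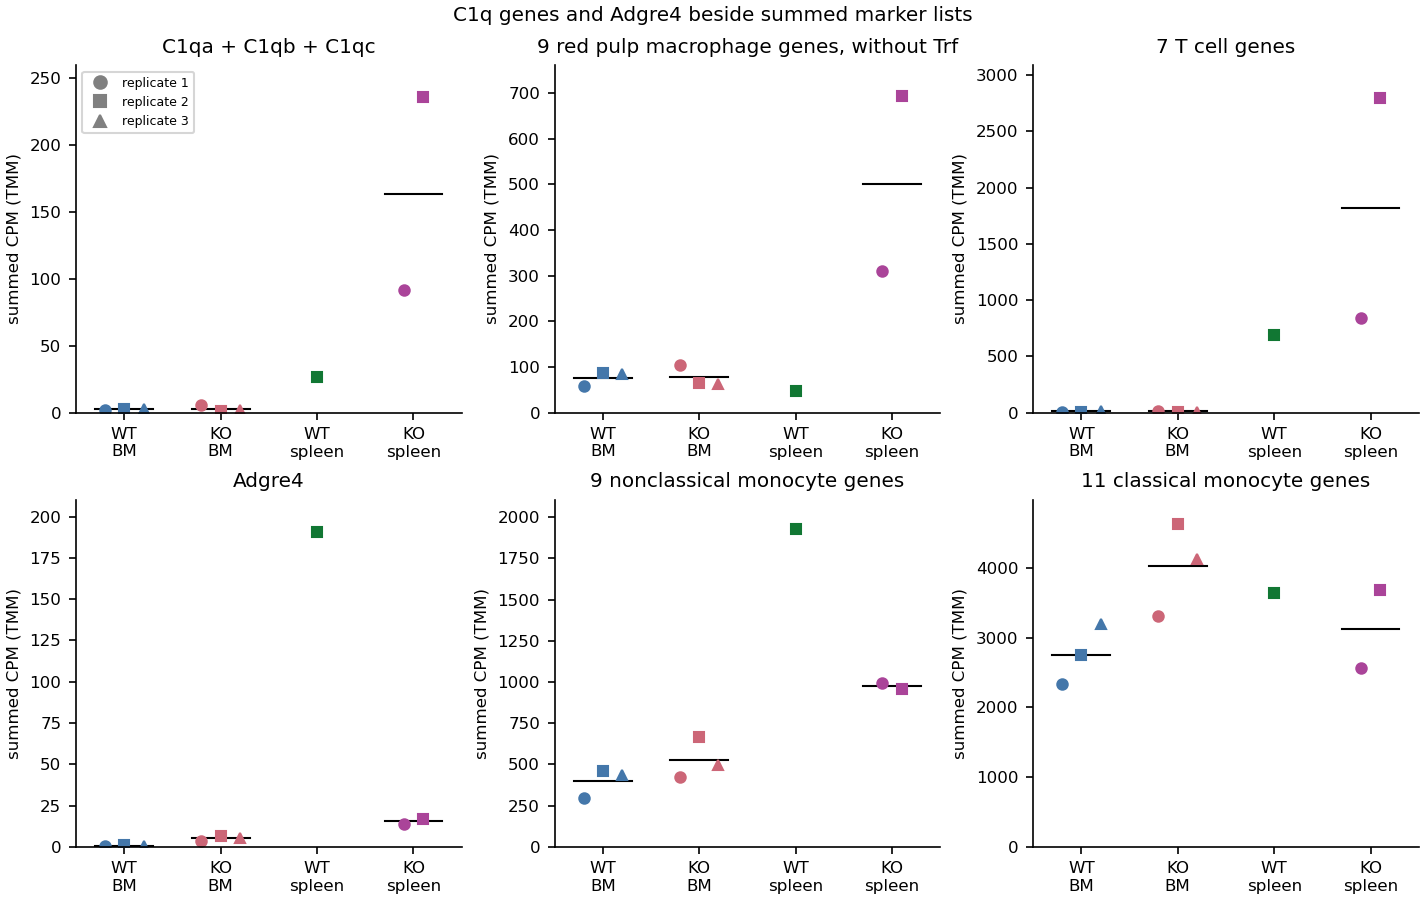
Summed TMM-scaled CPM per sample on linear axes from 0 for the C1q genes, Adgre4 and 4 marker lists, with marker shapes for replicate numbers and lines for group means. The C1q sum was 26.8, 91.4 and 235 CPM in WT spleen, KO spleen 1 and KO spleen 2. The red pulp list without Trf (47.8, 309 and 692 CPM) and the T cell list had the same order. With Trf, its most abundant gene, the red pulp list summed to 876, 804 and 1198 CPM, which is another order. Adgre4 and the nonclassical monocyte list are highest in WT spleen, which is 1 library. Nothing is read from these orders.

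Partners of the members were read from 4 pathway lists, chosen with earlier results known. Calls over all genes tested were 5.98% higher in spleen and 9.70% lower, and the counts for these lists are a description only. Among the genes of the Mertk family and of apoptotic cell uptake, 2 of 10 tested rose and 1 fell, with 4 rising without KO spleen 1. Cd36, a scavenger receptor, rose by 3.55 ± 0.37 (adjusted p = 0.000401), and Axl, a paralog of Mertk, by 2.58 ± 0.53 (adjusted p = 0.0105), with 380 counts in WT spleen and 546 and 743 in KO spleen against 27 to 167 in BM. Gas6, their ligand, had 2 to 29 counts in BM and 0 in all 3 spleen samples (adjusted p = 0.0261, lost when any KO BM sample was left out). Mfge8, a bridging protein and the most abundant of the list, was at -0.55 ± 0.31 (adjusted p = 0.252).

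Among the other complement genes, 0 of 12 tested rose and 1 fell. That was C2, the serine protease of the classical pathway, with 4 to 33 counts in BM and 0 in spleen (adjusted p = 0.0359), a call lost when any of 7 samples was left out. Cfp (properdin), the most abundant, was at -0.67 ± 0.23 (adjusted p = 0.0755). Vsig4, a complement receptor of tissue macrophages, and Serping1, the C1 inhibitor, had at most 1 count in any sample. Of the 12, 3 had an unadjusted p under 0.05 in either direction, as did 5153 of the 15813 genes tested.

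In the Cd14 and TLR4 pathway, 2 of 10 genes rose and 1 fell. Without WT spleen 0 rose, and 1 did without KO BM 1, KO BM 3 or any WT BM sample. Tlr2, a lipoprotein receptor, rose by 1.68 ± 0.40 (adjusted p = 0.0204), and not without WT spleen, and Myd88, the shared adaptor, by 0.56 ± 0.16 (adjusted p = 0.0478), a call lost when any of 7 samples was left out. Lbp, which delivers lipopolysaccharide to CD14, had 34 to 253 counts in BM and 0 in spleen (adjusted p = 0.00589). Ly86, the most abundant of the list, was at -0.32 ± 0.23 (adjusted p = 0.358). Of the 13 lysosomal genes read beside Cd68 and Lyz2, 2 rose and 1 fell. The acid lipase gene Lipa rose by 1.36 ± 0.24 (adjusted p = 0.00495) and the cathepsin gene Ctss by 1.34 ± 0.26 (adjusted p = 0.00904), the latter call being lost without WT spleen. Grn, the progranulin gene, fell by 0.83 ± 0.22 (adjusted p = 0.0344, lost when any of 6 samples was left out), and Psap, the most abundant, was at -0.27 ± 0.27 (adjusted p = 0.526).

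Markers of other cells moved with the tissue too. Their lists were chosen with earlier results known, and the counts of calls are a description only. Over all genes tested, 5.98% were called higher in spleen and 9.70% lower. Although the lineage cocktail held antibodies to CD3, NK1.1, B220 and Ter119, all 7 T cell genes rose in spleen, led by Cd3d (9.32 ± 0.47, adjusted p = 1.23e-05) and Cd3g (10.30 ± 0.70, adjusted p = 4.06e-05). Their summed level was 4.92 to 17.04 CPM in BM, 692 in WT spleen, 841 in KO spleen 1 and 2802 in KO spleen 2, where Lck alone had 25031 counts. Of 5 NK cell genes 4 rose, led by Prf1 (8.85 ± 0.56, adjusted p = 2.89e-05) and Eomes (8.14 ± 0.69, adjusted p = 0.000128). The list summed to 45.9 to 130 CPM in BM, 547 in WT spleen and 496 and 711 in KO spleen, most of it from Klrk1. Of 5 erythroid genes 3 rose and 1 fell. Klf1 had 233 to 5625 counts in BM and 0, 5 and 2 in spleen, and Hba-a1 had 226 to 1727 counts in BM, 41971 in WT spleen, 267608 in KO spleen 1 and 115697 in KO spleen 2. Of 9 neutrophil genes 7 fell and 0 rose, and Mpo had 13857 to 46964 counts in BM and 1, 0 and 17 in spleen. Of 3 tested B cell genes Ms4a1 rose, with 0, 213 and 222 counts in the spleen samples. Cd79b was at -0.47 ± 0.27 (adjusted p = 0.25), and Pax5 had at most 3 counts in any sample. Of the 5 pDC genes 0 were called by edgeR, 3 having an unadjusted p under 0.05, and the most abundant, Bst2, was at 0.06 ± 0.26 (adjusted p = 0.9). The part of these cells in the members' values was not tested.

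The genes whose log2 CPM followed a member most closely over the 9 samples were read for Adgre1, C1qa and Lyz2 among the 10996 genes whose counts averaged 50 or more. As the samples share 2 tissues, these correlations mostly carry the tissue difference. For Adgre1 the 5 closest included Ace (Pearson r = 0.984), Akirin1, Ddit4 and Abcb1a. Ace, the angiotensin-converting enzyme, is also on the nonclassical monocyte list, with 708 counts in WT spleen and 196 and 280 in KO spleen. For C1qa they were Ikzf3 (0.988), Lime1 (0.981), Lef1 (0.980), Socs1 and Gzmb. Ikzf3, Lef1 and Gzmb are known from lymphocytes, as a transcription factor of lymphoid cells, a transcription factor of T cells and a granule protease of cytotoxic cells. Lef1 had 94 counts in WT spleen, 1519 in KO spleen 1 and 3846 in KO spleen 2, the order of C1qa. For Lyz2 they were Scarb2 (0.961), a lysosomal membrane protein, Clk3 (0.960), Pepd, Cd209a and Cd300a. Among the members themselves the closest pair was C1qa with C1qb (r = 0.960, but 0.540 over the 6 BM samples). Cd68 with Lyz2 followed (0.907, and 0.895 over the 6 BM samples).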

How the data were processed

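RNA-seq was done on rRNA-depleted total RNA of the 9 samples (RNeasy Micro extraction, KAPA Hyper prep with RiboErase, DNBSEQ sequencing). The authors deposited RSEM expected counts for 51912 genes without normalization, and 25.6% of nonzero entries have decimals. Their processing notes name Trimmomatic 0.36, STAR 2.5.2, RSEM 1.3.0, DESeq2 1.18.1 and GRCm38. The strand setting is not given in the sources used here. RSEM divides reads shared by similar genes, so counts of paralogs are estimates. The deposited variance-stabilized values were not used.

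Expected counts were rounded and given GENCODE M21 symbols. Groups came from the genotype and tissue in the labels. Spleen was compared with BM over all 9 samples with genotype as covariate, and KO with WT over the 6 BM samples, with edgeR 4.0.16 in R 4.3.3 (TMM, filterByExpr by group, quasi-likelihood F test, Benjamini-Hochberg adjustment over all genes tested, threshold 0.05, prior count 2). Because 1 group has 1 sample, that filter keeps genes found in 1 library. Each SE was taken as the absolute log2 difference over the square root of its F statistic. It is an approximation that depends on the prior count for genes near 0 counts. Alternatives were DESeq2 1.42.0, limma 3.58.1 (voom), other scaling and filters, a replicate block, KO samples only and leaving out each sample. The fits were tested on simulated data. The 9 genes and all lists were chosen with earlier results of these data known. All 9 members are named, and from each list up to 2 called genes per direction (lowest adjusted p first), the most abundant gene and defining genes with at most 3 counts throughout, plus the 5 genes most correlated with Adgre1, C1qa and Lyz2. Some genes that this rule names are not reported here. Samples were not treated as pairs by replicate number. The paper gives 6 mice in total, with each sample pooled from 2 mice, so samples shared mice. The main fits nevertheless treat the samples as independent. Counting intervals (95%) and floors cover counting error only, since reads without molecular identifiers are not independent molecules.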

Additional observations from a re-analysis of the deposited data

Results flagged for a closer look

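Adgre4 differed in direction between the tissues. The log2 ratio of mean CPM, KO over WT, was 3.19 in BM, where all 3 KO samples were above all 3 WT samples, and -3.64 in spleen, where both KO samples were below the WT sample. The difference between the tissues was not tested.

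C1qa in KO BM 1, at 2.13 CPM, was far from the other 5 BM samples, which had 0.461 to 1.002 CPM. Such a gap is found by chance in about 1 in 20 groups. The same library had the highest C1qb (66 counts), C1qc (12 counts) and Vcam1 (116 counts) of the BM samples.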

How the results depend on the processing

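The tissue differences of Adgre1, Adgre4, C1qa, C1qb, C1qc, Cd68, Cd14 and Mertk were above 0 under every setting that could test them. Lyz2 alone turned, to -0.04 without WT spleen and with KO samples only. Both of those settings compare KO spleen with KO BM, so they are not separate checks. Genes called in spleen against BM numbered 945 higher and 1534 lower. DESeq2 gave 1671 and 2423, KO samples only 499 and 837, and a replicate block 363 and 641. With at least 10 counts in every sample, 785 were lower, and 55.4% of calls were higher against 38.1%, since genes absent from either tissue are left out. That filter left 2 members called higher, and of the other macrophage and monocyte genes 7 higher and 1 lower. The latter were 5 higher with the replicate block and 7 with KO samples only. Leaving out 1 sample gave 591 (KO BM 1) to 1124 genes higher, 993 (KO BM 1) to 1994 lower, 3 to 5 members higher, and 10 (WT BM 2, KO BM 1 or WT spleen) to 17 macrophage and monocyte genes higher and 2 to 4 (WT spleen or KO spleen 2) lower. A filter by tissue, chosen after seeing the data, tested 13468 genes and called 980 higher and 1651 lower.

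In BM, 2 genes were called higher in KO and 2 lower. DESeq2 called 7 and 4, with 1 member, Adgre4, higher. The counts were 6 and 4 with no filter beyond 1 count. With library size only, or all 9 samples in 1 fit, 1 was higher, and with at least 10 counts in every sample 1 was lower. Leaving out 1 sample gave 1 to 2 higher and 1 to 13 lower, the 13 without KO BM 1. The causes were not tested.

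Same-numbered WT and KO samples correlated in their deviations at 0.103, 0.0989 and -0.0815, and the numbers were not taken as pairs. Low correlations do not show that these samples came from separate mice. The replicate block ended the call of Adgre4 (log2 difference 4.60) and moved the counts above.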

Other observations

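The genes that define pre-cDCs and their progeny were present in both tissues. Flt3 and Spn, whose products CD135 and CD43 were part of the sort, were at 0.20 ± 0.25 and -0.57 ± 0.18 (log2, spleen minus BM). Of 12 such genes, 2 rose in spleen and 1 fell, while 5.98% of all genes tested were called higher and 9.70% lower. Xcr1, the chemokine receptor of cDC1s, rose by 4.40 ± 0.71 (edgeR adjusted p = 0.00352), with 22 to 196 counts in BM, 1767 in WT spleen and 3111 and 905 in KO spleen. Irf4, a factor of cDC2s, rose by 2.73 ± 0.48 (adjusted p = 0.00509). Irf8, a factor that pre-cDCs and cDC1s need, fell by 1.36 ± 0.32 (adjusted p = 0.0204), a call lost without KO BM 2 or WT spleen. Within BM, Clec9a alone of these genes was called, at -8.98 ± 0.39 (log2, KO minus WT, adjusted p = 9.38e-06).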
